A study of Mus musculus with 16 samples.

Results

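CD44+ alveolar type 2 (AT2) cells of Sftpc mutant lungs were compared with CD44+ AT2 cells of control lungs by RNA sequencing of sorted mouse cells. The comparison takes 8 of the 16 libraries of the series, the 4 whose columns begin with OG and the 4 whose columns begin with R26, and all genes with enough reads to be tested. The column names give animals 3, 5, 6 and 7 for OG CD44+ and animals 1, 2, 7 and 8 for R26 CD44+, and values of single libraries are listed in that order throughout. The other 8 libraries are CD44- AT2 cells of the same animals and are used here only to show where the CD44+ cells differ. Per the labels the genotypes are SP-C Mutant and SP-C WT, the tissue is lung, and every sample, controls included, carries the treatment text OG TMX. The labels give neither the mutation nor the allele or promoter behind it, and no strain, age, sex or time after treatment. They also do not say which prefix belongs to which genotype. OG was read here as the mutant and R26 as the control, without use of any expression value, and if that reading is wrong each difference below keeps its size and changes sign with respect to genotype.

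Before RNA was taken, cells bearing CD45 or CD31 had been depleted, and live cells were gated as Epcam+, CD200 high and negative for CD45, CD31 and CD104 (integrin beta 4), then as CD44+ or CD44-. AT2 cells make and secrete surfactant, the lipid and protein film that keeps air spaces open, and they renew both themselves and the flat alveolar type 1 (AT1) cells of the gas-exchange surface. Surfactant protein C, the product of Sftpc, is cut out of a membrane-bound proprotein on its way through the secretory pathway, and in humans mutations of the gene cause inherited interstitial lung disease. On the way to AT1 cells, AT2 cells pass through a transitional state that is marked by keratin 8 and builds up in injured and fibrotic lungs. CD44 is a surface receptor for hyaluronan. The series title names aberrant transitional alveolar cells and their action on lung fibroblasts as the subject.

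The 8 CD44+ libraries held 9022471 to 13596733 counts. Of 27179 genes in the table, 15516 had enough reads to be tested, and 5358 of them (34.5%) were higher and 5368 (34.6%) lower in OG CD44+ cells than in R26 CD44+ cells by edgeR's quasi-likelihood test at a Benjamini-Hochberg adjusted p under 0.05. Against a 1.5-fold minimum 2154 were higher and 2625 lower. Levels are given in CPM, which are counts scaled to a common library size by TMM and given per 1000000, differences as log2 fold changes of OG CD44+ over R26 CD44+ with a standard error, and "rose" and "fell" are used only for genes that passed this test. The median log2 fold change over all tested genes was -0.01. TMM centres the bulk of these fold changes, so this median and the balance of higher and lower counts partly follow from the scaling. The first principal component, with 75.1% of the variance, separated the prefixes, and correlations of log2 CPM were 0.984 to 0.992 among OG libraries, 0.966 to 0.978 among R26 libraries and 0.886 to 0.906 between them. The libraries of OG animal 3 and R26 animal 1 stood apart from the rest of their groups by the highest summed fibroblast marker level, and without both of them 5274 genes were higher and 5235 lower. The R26 library of animal 2 had the highest summed AT2 level of its group. With each of the 8 libraries left out in turn, 5168 to 5543 genes were higher and 5170 to 5395 lower. With this many genes called in each direction, the share of a list is read below against 34.5% and 34.6%. In sorted bulk cells, fewer cells of a type and less RNA per cell cannot be told apart.

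**Figure D1:**
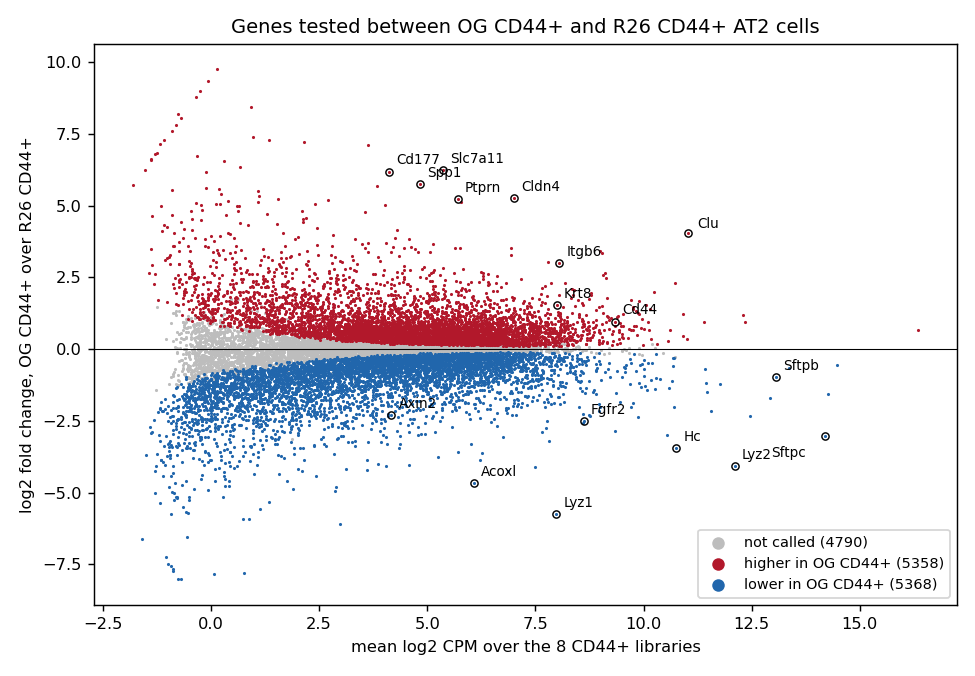
Each point is 1 of the 15516 tested genes, plotted by mean log2 CPM over the 8 CD44+ libraries (horizontal) and log2 fold change of OG CD44+ over R26 CD44+ cells (vertical). Red marks the 5358 genes called higher, blue the 5368 called lower and grey the rest, and Cldn4, Clu, Lyz2 and Sftpc are among the named genes that lie far from 0 at high abundance.

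Sftpc itself (gene 20389, chromosome 14, 70520941 to 70524081 in GRCm38) was far lower in OG CD44+ cells. It stood at 5688, 6869.8, 7173 and 7055 CPM in OG CD44+ cells, against 48594, 72715, 48837 and 47309 CPM in R26 CD44+ cells. All 4 OG libraries lay below all 4 R26 libraries, and the R26 library of animal 2 was the highest. The log2 fold change was -3.02 ± 0.12 (edgeR adjusted p = 4.85e-15). Counts per gene do not separate mutant from normal transcripts, so this level does not check the genotype. Of the 6 genes that encode the antigens of the sort, 3 rose and 2 fell. Cd44 was at 905, 947, 906 and 897 CPM in OG CD44+ cells, against 502, 387, 560.0 and 426 CPM in R26 CD44+ cells, higher in every OG library although both groups had been gated as CD44+ (log2 fold change 0.96 ± 0.08, edgeR adjusted p = 3.43e-10). Epcam, the adhesion molecule of epithelial cells, rose by 0.87 ± 0.05 log2 units. Cd200, an immune-inhibitory surface protein that was gated as high, was at 81, 75.6, 76.9 and 79.2 CPM in OG CD44+ cells, against 121, 139, 136 and 141 CPM in R26 CD44+ cells, lower in every OG library (log2 fold change -0.78 ± 0.05, edgeR adjusted p = 3.90e-12). Itgb4, the gene for CD104, against which the cells were gated, was at 86.8, 95.1, 97.2 and 99.9 CPM in OG CD44+ cells, against 19.1, 9.38, 12.3 and 14.5 CPM in R26 CD44+ cells. Its level was several-fold higher in every OG library (log2 fold change 2.76 ± 0.12, edgeR adjusted p = 1.87e-14). Pecam1, the gene for CD31, was low in both groups, at 1.78 to 7.89 CPM in OG CD44+ cells, against 15.6 to 19.9 CPM in R26 CD44+ cells, and fell by 2.36 ± 0.35 log2 units. Without OG animal 3, whose library held the highest Pecam1 level of its group, the Pecam1 log2 fold change was -3.10. Ptprc, the gene for CD45, was at 3.84 to 8.63 CPM in OG CD44+ cells, against 4.76 to 15.4 CPM in R26 CD44+ cells (log2 fold change -0.61 ± 0.33, edgeR adjusted p = 0.115), and without OG animal 3 it was at -0.97 with an edgeR adjusted p of 0.0109.

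The labelled cell type was checked against 8 AT2 markers: Sftpc, Sftpa1, Sftpb, Abca3, Lamp3, Slc34a2, Napsa and Etv5. All 8 were present in every CD44+ library, and all 8 fell in OG CD44+ cells. The fall was uneven. Sftpa1, a collectin of surfactant, was at 2327, 2629.6, 2570.4 and 2635 CPM in OG CD44+ cells, against 11359, 14814, 12083 and 12514 CPM in R26 CD44+ cells (log2 fold change -2.32 ± 0.07, edgeR adjusted p = 2.16e-18). Sftpb, the small hydrophobic surfactant protein needed for film formation, fell by 0.99 ± 0.13 log2 units. Abca3, the lipid pump of the lamellar body, fell by 1.10 ± 0.08 log2 units. Lamp3, a membrane protein of the lamellar body, was at 791, 889.8, 805 and 816 CPM in OG CD44+ cells, against 3050.4, 3678, 3490.0 and 3309.5 CPM in R26 CD44+ cells (log2 fold change -2.03 ± 0.06, edgeR adjusted p = 4.48e-19). Slc34a2, the phosphate transporter of mature AT2 cells, fell by 1.72 ± 0.08 log2 units. Etv5, a transcription factor that maintains AT2 identity, fell by 1.37 ± 0.08 log2 units. Napsa, an aspartic protease that processes surfactant proteins, had the smallest fall of the 8 at -0.55 ± 0.13.

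Over all 38 tested members of the AT2 and surfactant list, 2 rose and 36 fell, with no gene left uncalled and a median log2 fold change of -1.34. In all 38 the 2 groups of 4 libraries did not overlap, where 29.3% of tested genes lay wholly above and 28.3% wholly below. The summed level of the list was 43016 to 48613 CPM in OG CD44+ cells, against 153029 to 216564 CPM in R26 CD44+ cells. The lysozyme genes and Acoxl fell by the most. Lyz2 was at 1110.1, 1086, 1084 and 1043 CPM in OG CD44+ cells, against 16357, 23629, 16964 and 16731 CPM in R26 CD44+ cells (log2 fold change -4.09 ± 0.10, edgeR adjusted p = 1.40e-19). Lyz1, its close copy, was at 33.4, 37.6, 34.2 and 32.1 CPM in OG CD44+ cells, against 1620.0, 2148, 1704 and 1990.0 CPM in R26 CD44+ cells (log2 fold change -5.76 ± 0.10, edgeR adjusted p = 2.28e-21). How reads were shared between these copies is uncertain, but both were lower in every OG library. Acoxl, an acyl-CoA oxidase-like gene, was at 14.1, 13.8, 12 and 13.6 CPM in OG CD44+ cells, against 266, 452, 282 and 369 CPM in R26 CD44+ cells (log2 fold change -4.67 ± 0.18, edgeR adjusted p = 2.58e-11). Hc, which encodes complement C5, was at 514, 551, 519 and 505 CPM in OG CD44+ cells, against 5324, 6434, 5937 and 5316 CPM in R26 CD44+ cells (log2 fold change -3.46 ± 0.07, edgeR adjusted p = 4.19e-22). Chil1, a chitinase-like secreted protein, fell by 3.01 ± 0.10 log2 units. Fgfr2, the receptor for fibroblast growth factors that AT2 cells need to persist, was at 157, 164, 172 and 169 CPM in OG CD44+ cells, against 898, 955, 963 and 931 CPM in R26 CD44+ cells, with no R26 library near the OG level (log2 fold change -2.50 ± 0.05, edgeR adjusted p = 1.55e-22).

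Further members of the AT2 list fell by less. Cxcl15, a lung-specific chemokine, fell by 2.17 ± 0.07 log2 units. Il33, an alarmin held in AT2 nuclei, fell by 1.84 ± 0.07 log2 units. Ppp1r14c, a phosphatase inhibitor, fell by 2.30 ± 0.05 log2 units. Transcription factors of the alveolar programme were divided. Nkx2-1, which specifies lung epithelium, fell by 0.43 ± 0.05 log2 units. Cebpa, a factor of AT2 maturation, fell by 0.85 ± 0.08 log2 units. Foxa1, a pioneer factor, fell by 0.70 ± 0.06 log2 units. Its relative Foxa2 rose by 0.42 ± 0.07 log2 units. The other member that rose was Ctsh, the cathepsin that trims pro-SP-B and pro-SP-C, at 2159, 2601, 2489.9 and 2473 CPM in OG CD44+ cells, against 582, 635, 572 and 638 CPM in R26 CD44+ cells. Every OG library was above every R26 library for Ctsh (log2 fold change 2.0 ± 0.06, edgeR adjusted p = 1.86e-18).

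Beyond the lists, the largest increases among abundant genes (mean log2 CPM of at least 4, groups not overlapping) included genes with diverse roles. Cd177, a surface glycoprotein best known on neutrophils, was at 129, 182, 182 and 179 CPM in OG CD44+ cells, against 2.53, 0.238, 3.5 and 2.54 CPM in R26 CD44+ cells (log2 fold change 6.18 ± 0.27, edgeR adjusted p = 8.24e-11). Ptprn, a receptor-type phosphatase of secretory granules, was at 289.8, 325, 337 and 334 CPM in OG CD44+ cells, against 8.61, 5.82, 8.17 and 11.2 CPM in R26 CD44+ cells (log2 fold change 5.23 ± 0.11, edgeR adjusted p = 3.69e-19). Kif1a, a kinesin of axonal transport, rose by 5.12 ± 0.10 log2 units. Tenm4, a teneurin adhesion protein, rose by 5.01 ± 0.10 log2 units. Rgs4, a regulator of G protein signalling, rose by 3.86 ± 0.14 log2 units. S100a14, a calcium-binding protein of epithelia, rose by 3.85 ± 0.10 log2 units. Fbxo2, a ubiquitin ligase subunit that recognises glycoproteins, rose by 3.71 ± 0.10 log2 units. All 5 of these genes were higher in every OG library, which the choice of genes without overlap had fixed.

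Among the largest decreases outside the lysozymes and Acoxl, Anpep, an aminopeptidase, was at 30.0, 23.2, 28.8 and 26.3 CPM in OG CD44+ cells, against 422, 673, 459 and 509 CPM in R26 CD44+ cells (log2 fold change -4.25 ± 0.16, edgeR adjusted p = 9.35e-12). Itih4, an inter-alpha-trypsin inhibitor heavy chain, fell by 4.11 ± 0.11 log2 units. Rerg, a Ras-like GTPase, fell by 4.07 ± 0.11 log2 units. C6, a complement component of the membrane attack complex, fell by 3.63 ± 0.07 log2 units. Nrn1, a neuritin, fell by 4.03 ± 0.28 log2 units. Tle2, a co-repressor, fell by 3.59 ± 0.09 log2 units. Ttn, the giant muscle protein titin, fell by 3.76 ± 0.26 log2 units. Gem, a small GTPase, fell by 3.87 ± 0.15 log2 units. Phf24, a PHD finger protein, fell by 3.46 ± 0.11 log2 units. None of these 9 genes overlapped between the groups, but the largest changes were named only from genes without overlap. This is therefore no separate result.

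Markers of the transitional, Krt8-high state were higher as a group. Of 37 tested, 33 rose and 3 fell, with a median log2 fold change of 1.62, and their summed level was 18654 to 19409.8 CPM in OG CD44+ cells, against 3453 to 4517 CPM in R26 CD44+ cells. Cldn4, a claudin of the tight junction and a defining gene of the state, was at 869, 760.2, 793 and 781 CPM in OG CD44+ cells, against 23.5, 15, 22.8 and 20.7 CPM in R26 CD44+ cells. The OG libraries thus lay more than an order of magnitude above the R26 ones (log2 fold change 5.27 ± 0.10, edgeR adjusted p = 4.86e-20). Clu, the secreted chaperone clusterin, was at 8381, 8434, 8602 and 8625 CPM in OG CD44+ cells, against 570.0, 436, 604 and 453 CPM in R26 CD44+ cells (log2 fold change 4.04 ± 0.09, edgeR adjusted p = 4.74e-20). Among keratins, Krt8 was at 427, 415, 434 and 456 CPM in OG CD44+ cells, against 161, 133, 169 and 139 CPM in R26 CD44+ cells (log2 fold change 1.52 ± 0.06, edgeR adjusted p = 4.89e-16). Krt19 rose by 2.30 ± 0.05 log2 units. Krt7 rose by 2.11 ± 0.08 log2 units. Krt18 rose by 1.65 ± 0.05 log2 units. Every one of these keratins was higher in all 4 OG libraries.

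Surface and secreted members of the transitional list followed. Plaur, the urokinase receptor, rose by 3.55 ± 0.10 log2 units. Itgb6, the beta subunit of the integrin that releases TGF-beta from its latent form, was at 739, 776, 763 and 753 CPM in OG CD44+ cells, against 112, 67.5, 114 and 84.4 CPM in R26 CD44+ cells (log2 fold change 3.0 ± 0.14, edgeR adjusted p = 1.70e-10). Lgals3, the beta-galactoside-binding lectin galectin-3, was at 558, 623, 671 and 662 CPM in OG CD44+ cells, against 77.6, 76.1, 77.3 and 76.9 CPM in R26 CD44+ cells (log2 fold change 3.03 ± 0.06, edgeR adjusted p = 6.09e-22). F3, tissue factor, rose by 2.53 ± 0.10 log2 units. Ndrg1, a stress-induced cytoplasmic protein, rose by 2.54 ± 0.06 log2 units. Sfn, a 14-3-3 protein of stressed epithelia, rose by 2.44 ± 0.08 log2 units. Anxa1, a calcium-dependent phospholipid-binding protein, rose by 2.47 ± 0.12 log2 units. The 3 members that fell were Itgb8, Ifrd1 and Lcn2. Itgb8, another integrin subunit that activates TGF-beta, fell by 1.03 ± 0.29 log2 units. Ifrd1, a transcriptional co-regulator, fell by 1.33 ± 0.13 log2 units. Lcn2, the iron-scavenging lipocalin, fell by 0.66 ± 0.17 log2 units.

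**Figure D2:**
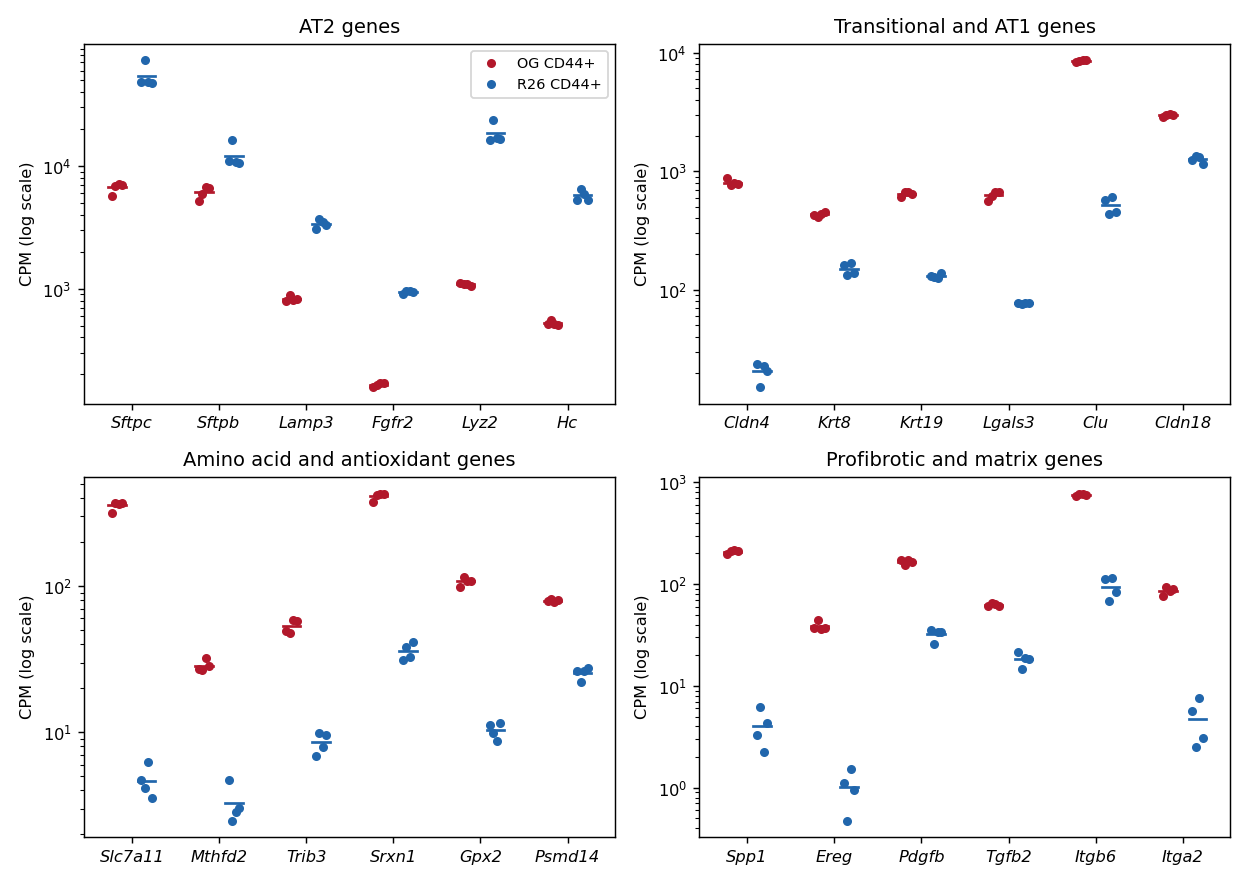
CPM on a log scale for each CD44+ library, with OG CD44+ in red at the left and R26 CD44+ in blue at the right of each gene, and a line at the group mean. In all 24 genes the 4 red points lie wholly above or wholly below the 4 blue ones, below in the AT2 panel and above in the other 3. The genes were picked with their values known, so this is no separate result. List members that went the other way, such as Ctsh and Igfbp2, are not drawn. Over all tested genes, 29.3% lay wholly above and 28.3% wholly below.

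AT1 markers also rose more often than they fell, at 21 and 6 of 27, with a median log2 fold change of 1.02 and a summed level of 17973 to 19858 CPM in OG CD44+ cells, against 9278 to 10401 CPM in R26 CD44+ cells. Cldn18, the claudin of the alveolar barrier, was at 2878, 2996, 3042 and 2959 CPM in OG CD44+ cells, against 1248, 1345, 1309 and 1153 CPM in R26 CD44+ cells (log2 fold change 1.23 ± 0.06, edgeR adjusted p = 3.71e-15). Emp2, a tetraspan membrane protein, rose by 1.24 ± 0.05 log2 units. Agrn, the basement membrane proteoglycan agrin, rose by 1.96 ± 0.06 log2 units. Gprc5a, a retinoid-induced receptor, rose by 1.40 ± 0.05 log2 units. Of the classical AT1 markers, Pdpn (podoplanin) rose by 1.31 ± 0.08 log2 units. Hopx, a homeodomain-only co-factor, rose by 1.15 ± 0.10 log2 units. Aqp5, a water channel, rose by 1.02 ± 0.08 log2 units. Ager, the receptor for advanced glycation end products, rose by 0.66 ± 0.06 log2 units. The 6 that fell were Igfbp2, Spock2, Rtkn2, Vegfa, Cav1 and Bdnf. Igfbp2, a binding protein of insulin-like growth factors that marks terminally differentiated AT1 cells, was at 4.93, 4.61, 6.48 and 6.89 CPM in OG CD44+ cells, against 27.4, 28.3, 27.6 and 28 CPM in R26 CD44+ cells (log2 fold change -2.28 ± 0.16, edgeR adjusted p = 1.13e-11). Spock2, a matrix proteoglycan, was at 35.2, 39.9, 42.6 and 43.8 CPM in OG CD44+ cells, against 139.9, 135, 140.1 and 184 CPM in R26 CD44+ cells (log2 fold change -1.89 ± 0.08, edgeR adjusted p = 4.53e-15). Rtkn2, a marker of AT1 cells, fell by 0.90 ± 0.10 log2 units. Vegfa, the endothelial growth factor that AT1 cells supply, fell by 0.56 ± 0.08 log2 units. Cav1, caveolin-1, fell by 0.45 ± 0.11 log2 units. Bdnf, a neurotrophin, fell by 1.15 ± 0.22 log2 units.

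Genes of amino acid supply and of the antioxidant response were among the most increased. Slc7a11, the cystine importer, which stands on both lists, had the largest log2 fold change of all genes with a mean log2 CPM of at least 4. It was at 315, 372, 365 and 372 CPM in OG CD44+ cells, against 4.68, 4.16, 6.28 and 3.58 CPM in R26 CD44+ cells (log2 fold change 6.23 ± 0.11, edgeR adjusted p = 1.54e-20), with no R26 library above single digits. The integrated stress response uses the transcription factor ATF4, whose protein is made when translation is slowed by phosphorylation of eIF2 alpha, and its targets import and make amino acids and charge tRNAs. Of 36 tested ATF4-list genes, 29 rose and 6 fell, with a median log2 fold change of 0.99. Mthfd2, a mitochondrial folate enzyme, was at 26.9, 26.8, 32 and 28.2 CPM in OG CD44+ cells, against 4.68, 2.49, 2.87 and 3.02 CPM in R26 CD44+ cells (log2 fold change 3.10 ± 0.13, edgeR adjusted p = 2.95e-16). Trib3, a pseudokinase that feeds back on ATF4, was at 49, 47.5, 58.2 and 57.7 CPM in OG CD44+ cells, against 6.84, 9.86, 7.99 and 9.61 CPM in R26 CD44+ cells (log2 fold change 2.64 ± 0.12, edgeR adjusted p = 9.04e-15). Chac1, a glutathione-degrading enzyme, rose by 2.46 ± 0.16 log2 units. Asns, asparagine synthetase, rose by 1.90 ± 0.09 log2 units. Psat1, an enzyme of serine synthesis, rose by 1.64 ± 0.13 log2 units. Wars, a tRNA ligase, rose by 1.17 ± 0.06 log2 units. Aars, another ligase, rose by 1.11 ± 0.05 log2 units. The 6 that fell included transcription factors and enzymes. Atf4 itself fell by 0.24 ± 0.06 log2 units. Atf3, an immediate early factor, fell by 1.30 ± 0.19 log2 units. Ppp1r15a, which directs dephosphorylation of eIF2 alpha, fell by 0.65 ± 0.07 log2 units. Cth, an enzyme that makes cysteine, fell by 1.57 ± 0.13 log2 units.

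The promoters of genes on the ATF4 and antioxidant lists were searched for known motif letters of each pathway, on both strands of RefSeq windows of 300 bases (GRCm38.p6, 250 before and 50 after each start). The letters TGATGNAA, of the ATF4 response element, stood in 10 of 35 windows of the ATF4 list (28.6%), against 2.34% of 14550 windows of all tested genes, and 30 of the 36 genes had a window. Of the 10 genes, 8 rose and 2, Atf3 and Vldlr, fell. The letters TGACNNNGC, of the antioxidant response element, stood in 10 of 39 windows of the NRF2 list (25.6%, 29 of 34 genes with a window), 9 of 35 of the ATF4 list (25.7%) and 4 of 35 of the proteasome list (11.4%), against 14.3% of all windows. Over all genes called higher the ATF4 letters stood in 2.04% of windows, and over those called lower in 2.45%. For the antioxidant letters these shares were 15.2% and 13.3%. The ATF4 and NRF2 lists were drawn up from genes of each pathway, so their own shares do not bear on the contrast. The windows are a description of these stretches and show no binding. Those of 5 genes that rose are printed because their letters can be set beside their levels, the first 3 with the ATF4 letters in capitals and the last 2 with the antioxidant letters in capitals. Each is written 5′ to 3′ on the strand of its gene, and a match on the other strand appears as its reverse complement.
Slc7a11 (chr3:50443564-50443863, minus strand): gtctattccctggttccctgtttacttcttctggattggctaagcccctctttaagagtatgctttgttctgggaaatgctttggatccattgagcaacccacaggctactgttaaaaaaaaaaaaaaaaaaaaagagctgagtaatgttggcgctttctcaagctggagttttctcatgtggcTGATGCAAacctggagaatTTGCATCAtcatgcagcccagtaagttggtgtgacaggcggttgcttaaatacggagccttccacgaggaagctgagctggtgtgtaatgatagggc
Trib3 (chr2:152344011-152344310, minus strand): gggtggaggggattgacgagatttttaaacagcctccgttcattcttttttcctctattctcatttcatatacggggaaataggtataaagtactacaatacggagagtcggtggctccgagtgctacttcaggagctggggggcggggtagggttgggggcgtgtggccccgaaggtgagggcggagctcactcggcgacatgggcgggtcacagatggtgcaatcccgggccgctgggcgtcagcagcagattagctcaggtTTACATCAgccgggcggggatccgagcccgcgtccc
Asns (chr6:7693160-7693459, minus strand): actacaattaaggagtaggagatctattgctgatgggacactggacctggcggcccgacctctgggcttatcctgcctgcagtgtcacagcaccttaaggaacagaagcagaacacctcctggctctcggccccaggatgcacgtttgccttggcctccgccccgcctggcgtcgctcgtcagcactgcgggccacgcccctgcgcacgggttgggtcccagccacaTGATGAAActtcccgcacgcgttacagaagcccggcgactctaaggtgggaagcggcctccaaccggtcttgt
Srxn1 (chr2:152105274-152105573, plus strand): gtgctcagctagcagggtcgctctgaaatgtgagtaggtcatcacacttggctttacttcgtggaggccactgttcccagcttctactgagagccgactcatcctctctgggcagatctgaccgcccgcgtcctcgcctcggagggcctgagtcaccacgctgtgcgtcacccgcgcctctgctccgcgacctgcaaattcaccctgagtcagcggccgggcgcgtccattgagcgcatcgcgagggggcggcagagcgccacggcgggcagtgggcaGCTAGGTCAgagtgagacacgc
Gclm (chr3:122245307-122245606, plus strand): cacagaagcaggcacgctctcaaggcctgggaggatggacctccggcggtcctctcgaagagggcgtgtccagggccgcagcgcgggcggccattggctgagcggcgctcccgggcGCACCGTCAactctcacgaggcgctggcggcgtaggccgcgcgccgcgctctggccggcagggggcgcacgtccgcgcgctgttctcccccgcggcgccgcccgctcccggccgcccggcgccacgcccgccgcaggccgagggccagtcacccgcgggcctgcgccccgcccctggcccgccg

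The NRF2 list, which holds genes of glutathione synthesis, detoxification and NADPH supply, had 30 of 34 tested genes that rose and 0 that fell, with a median log2 fold change of 1.13. Srxn1, sulfiredoxin, was at 378, 417, 429 and 423 CPM in OG CD44+ cells, against 31.2, 38.6, 32.9 and 41.7 CPM in R26 CD44+ cells (log2 fold change 3.51 ± 0.08, edgeR adjusted p = 2.28e-21). Gpx2, a glutathione peroxidase of epithelia, was at 98.6, 116, 108 and 108 CPM in OG CD44+ cells, against 11.3, 9.86, 8.71 and 11.6 CPM in R26 CD44+ cells (log2 fold change 3.37 ± 0.10, edgeR adjusted p = 5.71e-19). Every OG library was above every R26 library for both. Esd, a serine hydrolase, rose by 2.64 ± 0.07 log2 units. Taldo1, of the pentose phosphate pathway, rose by 2.16 ± 0.06 log2 units. Gclm, the modifier subunit of glutamate-cysteine ligase, rose by 2.10 ± 0.08 log2 units. Its catalytic partner Gclc rose by 0.67 ± 0.07 log2 units. Nqo1, a quinone reductase, rose by 2.78 ± 0.22 log2 units. Txnrd1, thioredoxin reductase, rose by 1.23 ± 0.05 log2 units. Nfe2l2, which encodes NRF2 itself, was at 349.9 to 385 CPM in OG CD44+ cells, against 325 to 377 CPM in R26 CD44+ cells (log2 fold change 0.10 ± 0.05, edgeR adjusted p = 0.0664), and its edgeR adjusted p was 0.0222 without OG animal 3, 0.00422 without R26 animal 7 and 0.045 without R26 animal 8.

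Proteasome genes rose with them. Of 32 tested, 27 rose and 0 fell, with a median log2 fold change of 1.30, and the 5 genes that were not called were the immunoproteasome subunits Psmb8, Psmb9 and Psmb10 and the activator genes Psme1 and Psme2. Psmd14, the deubiquitinase of the proteasome lid, was at 78.5, 81.1, 77.3 and 79.7 CPM in OG CD44+ cells, against 26.3, 21.9, 26.1 and 27.7 CPM in R26 CD44+ cells (log2 fold change 1.63 ± 0.06, edgeR adjusted p = 1.07e-16). Psmc3, an ATPase of the base, rose by 1.57 ± 0.06 log2 units. Psmd11, a lid subunit, rose by 1.49 ± 0.06 log2 units. Psma1, of the core ring, rose by 1.27 ± 0.05 log2 units. Nfe2l1, the transcription factor that raises proteasome genes when degradation falls short, rose by 0.17 ± 0.04 log2 units. Chaperones of the endoplasmic reticulum moved less evenly: of 29 tested, 16 rose and 6 fell, with a median log2 fold change of 0.25. Under upper quartile scaling, or with at least 50 counts asked for in 4 libraries, 10 of them fell. Hspa5, the chaperone BiP, was at 1093, 1067, 1007 and 1031 CPM in OG CD44+ cells, against 711, 574, 659.6 and 708 CPM in R26 CD44+ cells (log2 fold change 0.66 ± 0.06, edgeR adjusted p = 6.40e-10). Calr, the lectin chaperone calreticulin, rose by 0.77 ± 0.05 log2 units. Pdia4, a disulphide isomerase, rose by 0.76 ± 0.04 log2 units. Pdia3, another isomerase, rose by 0.73 ± 0.04 log2 units. Xbp1, the transcription factor spliced by the IRE1 sensor, fell by 0.45 ± 0.05 log2 units. Herpud1, a component of the degradation complex, fell by 0.59 ± 0.05 log2 units. Dnajb9, a BiP co-chaperone, fell by 0.46 ± 0.07 log2 units. Of the stress sensors, Ern1 (IRE1) fell by 0.19 ± 0.05 log2 units. Eif2ak3 (PERK) fell by 0.22 ± 0.06 log2 units.

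Genes of lipid synthesis fell more often than they rose. Of 26 tested genes of cholesterol synthesis and uptake, 3 rose and 22 fell, with a median log2 fold change of -0.98. Insig1, which holds the sterol sensor back and is itself raised by low sterol, was at 53.2, 52.7, 52.6 and 57.5 CPM in OG CD44+ cells, against 198, 283, 206 and 249.8 CPM in R26 CD44+ cells (log2 fold change -2.12 ± 0.10, edgeR adjusted p = 1.87e-12). Idi1, isopentenyl diphosphate isomerase, fell by 2.03 ± 0.09 log2 units. Srebf2, the factor that drives these genes, fell by 0.82 ± 0.08 log2 units. The cholesterol exporters went the other way. Abca1 was at 202, 207, 195 and 209 CPM in OG CD44+ cells, against 98.7, 84.5, 74.8 and 89.2 CPM in R26 CD44+ cells (log2 fold change 1.23 ± 0.06, edgeR adjusted p = 1.28e-14). Abcg1 rose by 1.64 ± 0.24 log2 units. Of 34 tested genes of fatty acid and phospholipid synthesis, 5 rose and 25 fell, with a median log2 fold change of -0.55. Gpam, which adds the first acyl chain of a phospholipid, was at 37.6, 35, 38.5 and 37.1 CPM in OG CD44+ cells, against 273, 352, 303 and 305 CPM in R26 CD44+ cells (log2 fold change -3.06 ± 0.07, edgeR adjusted p = 1.36e-21). Acly, ATP citrate lyase, fell by 1.48 ± 0.06 log2 units. Fasn, fatty acid synthase, fell by 1.19 ± 0.10 log2 units. Mlxipl, the carbohydrate-responsive factor ChREBP, fell by 4.58 ± 0.22 log2 units. Scd1, a desaturase, fell by 0.65 ± 0.15 log2 units.

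Lysosomal genes, by contrast, mostly rose, 26 of 36 against 5 that fell, with a median log2 fold change of 0.53. Ctsd, the aspartic cathepsin D, was at 1223, 1312, 1334 and 1324 CPM in OG CD44+ cells, against 229.5, 237, 196 and 213 CPM in R26 CD44+ cells (log2 fold change 2.57 ± 0.06, edgeR adjusted p = 1.12e-20). Psap, the precursor of the saposins, rose by 1.19 ± 0.07 log2 units. Glb1, the lysosomal beta-galactosidase, rose by 1.33 ± 0.08 log2 units. Sqstm1, the autophagy receptor p62, was at 1397, 1405, 1496 and 1507 CPM in OG CD44+ cells, against 667, 543, 650.1 and 624 CPM in R26 CD44+ cells (log2 fold change 1.22 ± 0.06, edgeR adjusted p = 2.10e-15). Npc1, which moves cholesterol out of the lysosome, fell by 0.46 ± 0.05 log2 units. Tfeb, a master factor of lysosomal genes, fell by 0.34 ± 0.11 log2 units. The Tfeb call was lost in limma voom with quality weights (log2 fold change -0.28, adjusted p = 0.0632). Respiratory chain genes rose in 31 of 37 and fell in 2, with a median of 0.55. The list holds nuclear genes, and the 2 that fell, Ppargc1a and Ppargc1b, are co-activators of mitochondrial genes. Ppargc1a fell by 0.59 ± 0.11 log2 units. Ppargc1b fell by 2.60 ± 0.28 log2 units. Most subunits encoded by the mitochondrial genome fell. COX1, the first subunit of cytochrome oxidase, was at 10834, 12425, 11409.6 and 11823 CPM in OG CD44+ cells, against 29688, 39524, 29539 and 37779.7 CPM in R26 CD44+ cells (log2 fold change -1.55 ± 0.09, edgeR adjusted p = 6.15e-13), with no overlap between the groups. Of the 13 tested protein genes of the mitochondrial genome, a set added after its values were seen, 0 rose and 12 fell, with a median log2 fold change of -1.28. Together they held 1.96 to 2.25% of the counts in OG CD44+ libraries and 4.87 to 6.11% in R26 CD44+ libraries. The cause of this difference was not tested. Cox5a, a subunit of cytochrome oxidase, rose by 1.07 ± 0.08 log2 units. Ndufa4, another subunit of the same complex, rose by 1.34 ± 0.09 log2 units. Glycolysis and hypoxia genes rose in 15 of 28 and fell in 9. Eno1, enolase, rose by 2.51 ± 0.09 log2 units. Pkm, pyruvate kinase, was at 462, 517, 522 and 524 CPM in OG CD44+ cells, against 132, 159, 129 and 128 CPM in R26 CD44+ cells (log2 fold change 1.89 ± 0.07, edgeR adjusted p = 8.93e-18). Slc2a1, the glucose transporter GLUT1, rose by 1.46 ± 0.07 log2 units. Epas1, the hypoxia-inducible factor HIF-2 alpha, was at 235, 256, 251 and 263 CPM in OG CD44+ cells, against 993, 1162, 984 and 971 CPM in R26 CD44+ cells (log2 fold change -2.03 ± 0.06, edgeR adjusted p = 2.88e-19).

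**Figure D3:**
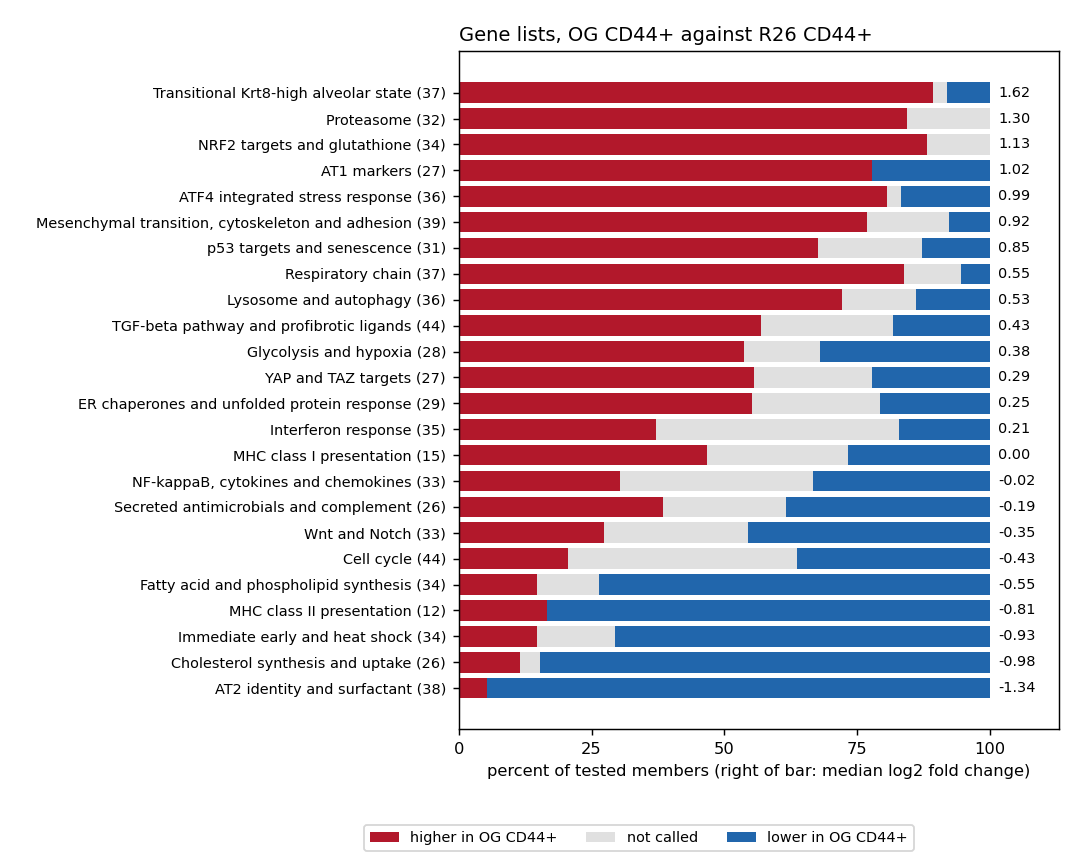
For 24 gene lists, the percent of tested members called higher (red, left), not called (grey) and called lower (blue, right) in OG CD44+ against R26 CD44+ cells, with the number tested in brackets and the median log2 fold change at the right of each bar. Medians run from 1.62 for the transitional list to -1.34 for the AT2 list, and over all tested genes 34.5% were called higher and 34.6% lower.

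Several ligands and activators linked to fibrosis rose, while the TGF-beta list as a whole was mixed, with 25 of 44 higher and 8 lower (median 0.43). Spp1, osteopontin, was at 197, 209.7, 216 and 213 CPM in OG CD44+ cells, against 3.28, 6.18, 2.24 and 4.33 CPM in R26 CD44+ cells (log2 fold change 5.74 ± 0.14, edgeR adjusted p = 1.99e-17). Ereg, epiregulin, a ligand of the EGF receptor, was at 36.7, 44, 36.3 and 37.3 CPM in OG CD44+ cells, against 1.12, 0.475, 1.53 and 0.942 CPM in R26 CD44+ cells (log2 fold change 5.19 ± 0.17, edgeR adjusted p = 2.48e-18). Both genes were at a few CPM or less in R26 CD44+ cells. Pdgfb, the mitogen of mesenchymal cells, was at 171, 153, 171 and 166 CPM in OG CD44+ cells, against 35.3, 25.9, 34.2 and 34.1 CPM in R26 CD44+ cells (log2 fold change 2.34 ± 0.08, edgeR adjusted p = 5.30e-18). Tgfb2 was at 61.2, 65.4, 63.7 and 61.4 CPM in OG CD44+ cells, against 21.3, 14.8, 19 and 18.4 CPM in R26 CD44+ cells (log2 fold change 1.77 ± 0.10, edgeR adjusted p = 2.67e-13). Tgfb1 was at 38.1 to 44.5 CPM in OG CD44+ cells, against 30.3 to 44.3 CPM in R26 CD44+ cells, with overlap between the groups, and its difference was small (log2 fold change 0.26 ± 0.10, edgeR adjusted p = 0.0199). Leaving out the CD44+ library of OG animal 5 or of R26 animal 8 ended the Tgfb1 call, at edgeR adjusted p values of 0.057 and 0.0506. So did leaving out both libraries of OG animal 5 or of OG animal 7 (0.0652 and 0.0614), upper quartile scaling (0.0691), the filter of at least 50 counts in 4 libraries (0.054) and a fit of the 8 CD44+ libraries alone (0.0624), all edgeR adjusted p values. Itgav, the alpha chain that pairs with Itgb6, was at 572, 625, 590.1 and 583 CPM in OG CD44+ cells, against 185, 145, 198 and 168 CPM in R26 CD44+ cells (log2 fold change 1.77 ± 0.07, edgeR adjusted p = 2.24e-16). Plau, urokinase, rose by 4.21 ± 0.33 log2 units, or 4.85 without R26 animal 1. Edn1, endothelin-1, rose by 2.09 ± 0.21 log2 units. Ccn2, the matricellular connective tissue growth factor, rose by 1.53 ± 0.12 log2 units. Among the members that fell, Ltbp4, a latent TGF-beta binding protein, fell by 1.18 ± 0.23 log2 units. Tgfbr3, the betaglycan co-receptor, fell by 1.05 ± 0.12 log2 units. Shh, a hedgehog ligand, fell by 0.50 ± 0.10 log2 units.

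Genes of adhesion, the basement membrane and the actin cytoskeleton rose in 30 of 39 and fell in 3, with a median log2 fold change of 0.92. Without OG animal 3, 5 fell. Itga2, a collagen-binding integrin, was at 76.8, 92.7, 86.4 and 89.3 CPM in OG CD44+ cells, against 5.71, 2.49, 7.63 and 3.11 CPM in R26 CD44+ cells (log2 fold change 4.15 ± 0.21, edgeR adjusted p = 9.55e-11). Itga3, a laminin-binding integrin, rose by 1.89 ± 0.04 log2 units. Fn1, fibronectin, was at 2146, 1586, 1578 and 1560.0 CPM in OG CD44+ cells, against 271, 124, 138 and 141 CPM in R26 CD44+ cells (log2 fold change 3.35 ± 0.23, edgeR adjusted p = 1.79e-08). Among genes that bind actin, Actn1 (alpha-actinin) rose by 1.75 ± 0.05 log2 units. Flna (filamin A) rose by 1.52 ± 0.05 log2 units. Msn (moesin) rose by 1.70 ± 0.05 log2 units. Classical mesenchymal and epithelial markers were mixed. Acta2, smooth muscle actin, was at 29.3 to 37.1 CPM in OG CD44+ cells, against 43.3 to 68 CPM in R26 CD44+ cells, and fell by 0.65 ± 0.17 log2 units. Vim, vimentin, was at 75.4 to 119 CPM in OG CD44+ cells, against 49.2 to 99 CPM in R26 CD44+ cells (log2 fold change 0.33 ± 0.18, edgeR adjusted p = 0.126), and its log2 fold change was 0.55 without R26 animal 1 (edgeR adjusted p = 0.00694). Cdh1, epithelial cadherin, rose by 0.70 ± 0.05 log2 units. The summed level of fibroblast and mural markers was 5794 to 8619 CPM in OG CD44+ cells, against 3233 to 5552 CPM in R26 CD44+ cells, and the part of such cells in these changes was not tested.

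YAP and TAZ targets rose in 15 of 27 and fell in 6, or in 3 with no filter on low counts. Ajuba, a LIM protein of junctions, rose by 2.32 ± 0.06 log2 units. Nt5e, the ectonucleotidase CD73, rose by 2.64 ± 0.13 log2 units. Yap1 itself fell by 0.15 ± 0.04 log2 units. With no filter on low counts the Yap1 call was lost (log2 fold change -0.11, edgeR adjusted p = 0.0777). Wnt and Notch genes rose in 9 of 33 and fell in 15. The ligands Wnt7a and Wnt7b were among those that rose. Wnt7a was at 40.6, 36.8, 38.1 and 35.9 CPM in OG CD44+ cells, against 6.46, 5.94, 6.01 and 7.07 CPM in R26 CD44+ cells (log2 fold change 2.57 ± 0.11, edgeR adjusted p = 6.16e-16). Wnt7b, its relative, rose by 1.90 ± 0.10 log2 units. Axin2, a feedback target of beta-catenin that marks Wnt-responding AT2 cells, was at 11.3, 6.99, 7.39 and 6.82 CPM in OG CD44+ cells, against 40.5, 45.5, 39 and 36.1 CPM in R26 CD44+ cells (log2 fold change -2.31 ± 0.13, edgeR adjusted p = 6.24e-13). Other feedback inhibitors of Wnt signalling fell as well. Notum, a lipase that inactivates Wnt ligands, fell by 2.02 ± 0.11 log2 units. Znrf3, which removes Wnt receptors, fell by 1.27 ± 0.07 log2 units. Nkd1, which binds Dishevelled, fell by 1.49 ± 0.08 log2 units. Of 31 p53 and senescence genes, 21 rose and 4 fell, with a median log2 fold change of 0.85. Cdkn1a, the cell cycle inhibitor p21, was at 369, 358, 369 and 376 CPM in OG CD44+ cells, against 126, 101, 121 and 131 CPM in R26 CD44+ cells (log2 fold change 1.62 ± 0.06, edgeR adjusted p = 8.51e-17). Ccng1, a cyclin induced by p53, rose by 2.18 ± 0.05 log2 units. Phlda3, an inhibitor of AKT, rose by 2.87 ± 0.08 log2 units. Cdkn2b, the inhibitor p15, rose by 2.74 ± 0.11 log2 units. Mki67, a marker of dividing cells, was at 44 to 53.2 CPM in OG CD44+ cells, against 39 to 105 CPM in R26 CD44+ cells (log2 fold change -0.49 ± 0.33, edgeR adjusted p = 0.197). In the cell cycle list 9 of 44 rose and 16 fell, and without R26 animal 1 or R26 animal 7 10 fell. Ccnd1, cyclin D1, was the largest increase there, at 766, 852, 841 and 854 CPM in OG CD44+ cells, against 308, 317, 309 and 282 CPM in R26 CD44+ cells (log2 fold change 1.45 ± 0.06, edgeR adjusted p = 1.29e-16). Bub1, a mitotic checkpoint kinase, fell by 1.75 ± 0.13 log2 units.

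Immune genes gave a divided picture. Of 12 MHC class II presentation genes, 2 rose and 10 fell, with a median log2 fold change of -0.81. H2-Aa, a class II alpha chain, was at 223, 222, 237 and 244 CPM in OG CD44+ cells, against 582, 682, 648 and 458 CPM in R26 CD44+ cells (log2 fold change -1.35 ± 0.10, edgeR adjusted p = 7.80e-10). Ciita, the co-activator that switches class II genes on, fell by 1.47 ± 0.09 log2 units. Ctss, a cathepsin that trims the invariant chain, rose by 1.58 ± 0.28 log2 units. Lgmn, the protease legumain, rose by 1.32 ± 0.08 log2 units. MHC class I genes had a median of 0.00, with 7 of 15 higher and 4 lower. Tapbp, tapasin, rose by 1.21 ± 0.06 log2 units. B2m was at 496 to 536 CPM in OG CD44+ cells, against 432 to 739.5 CPM in R26 CD44+ cells (log2 fold change -0.18 ± 0.15, edgeR adjusted p = 0.318). Without both libraries of R26 animal 8 the log2 fold change of B2m was -0.28 (edgeR adjusted p = 0.0341). Among interferon genes 13 of 35 rose and 6 fell. Oas3, an oligoadenylate synthetase, rose by 3.63 ± 0.28 log2 units. Rsad2, viperin, rose by 2.92 ± 0.18 log2 units. Stat2, a signal transducer of type I interferon, fell by 1.14 ± 0.09 log2 units. The NF-kappaB, cytokine and chemokine list was close to even at 10 and 11 of 33, or 7 lower without R26 animal 7. These shares, 30.3% and 33.3%, are near those over all tested genes, 34.5% and 34.6%. The summed level of this list was 4220 to 4426 CPM in OG CD44+ cells, against 8672 to 9910 CPM in R26 CD44+ cells. Icam1, an adhesion molecule for leukocytes, was at 1239.5, 1288, 1273 and 1243 CPM in OG CD44+ cells, against 758, 724, 806 and 717 CPM in R26 CD44+ cells (log2 fold change 0.75 ± 0.05, edgeR adjusted p = 1.88e-12). Lif, a cytokine of the interleukin 6 family, rose by 1.97 ± 0.15 log2 units. Nfkb1, a subunit of NF-kappaB, fell by 0.79 ± 0.05 log2 units.

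Secreted defence genes were also even in number, with 10 of 26 higher and 10 lower. Each share, 38.5%, is near those over all tested genes, 34.5% and 34.6%. Their summed level was 13072 to 13238 CPM in OG CD44+ cells, against 30912 to 40924 CPM in R26 CD44+ cells. Retnla, a resistin-like protein of type 2 inflammation, was at 189.7, 219, 223 and 235 CPM in OG CD44+ cells, against 47.4, 24.3, 46.9 and 22.1 CPM in R26 CD44+ cells (log2 fold change 2.61 ± 0.28, edgeR adjusted p = 2.46e-06). C3, the central complement component, was at 893, 715, 683 and 689.7 CPM in OG CD44+ cells, against 1624, 1266, 1439 and 1341 CPM in R26 CD44+ cells (log2 fold change -0.93 ± 0.08, edgeR adjusted p = 3.11e-10). Immediate early and heat shock genes fell together, 24 of 34 against 5 that rose (median -0.93), or 8 that rose without R26 animal 1 or R26 animal 7. Fos was at 458, 396, 408 and 409 CPM in OG CD44+ cells, against 1858, 1435, 1827 and 1689.5 CPM in R26 CD44+ cells (log2 fold change -2.03 ± 0.08, edgeR adjusted p = 4.47e-16). Ier2, an early response gene, fell by 2.29 ± 0.07 log2 units. Egr1, a zinc-finger factor induced within minutes, fell by 2.84 ± 0.13 log2 units. Klf4, a zinc-finger factor of epithelial differentiation, fell by 2.03 ± 0.10 log2 units. Constitutive and small heat shock genes were exceptions. Hspb1, HSP27, rose by 1.77 ± 0.13 log2 units. Hsp90ab1 rose by 0.80 ± 0.07 log2 units.

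Markers of other cell types that could have passed the gate were read by list. Ciliated cell markers were higher in OG CD44+ cells, 22 of 25 against 2 lower (1 lower without both libraries of R26 animal 1 or of R26 animal 8), with a summed level of 646 to 836 CPM in OG CD44+ cells, against 225 to 433 CPM in R26 CD44+ cells. Foxj1, the master factor of motile cilia, was at 105, 135, 136 and 137 CPM in OG CD44+ cells, against 48.6, 35.9, 17.8 and 54.5 CPM in R26 CD44+ cells (log2 fold change 1.71 ± 0.25, edgeR adjusted p = 4.36e-05). Dnah5, an axonemal dynein, rose by 2.22 ± 0.24 log2 units. Club and secretory markers summed to 2540.0 to 3342 CPM in OG CD44+ cells, against 4209.5 to 6384 CPM in R26 CD44+ cells, 6 of 17 higher and 9 lower. Scgb1a1, the club cell secretoglobin, was at 1289 to 1848 CPM in OG CD44+ cells, against 1229 to 2314 CPM in R26 CD44+ cells (log2 fold change -0.28 ± 0.24, edgeR adjusted p = 0.319), and without both libraries of R26 animal 7 its log2 fold change was -0.43 (edgeR adjusted p = 0.0316). Cbr2, a carbonyl reductase of club cells, was at 362, 406, 465 and 434 CPM in OG CD44+ cells, against 1932, 2867, 1809 and 2067 CPM in R26 CD44+ cells (log2 fold change -2.38 ± 0.14, edgeR adjusted p = 7.77e-10). Muc5b, an airway mucin, rose by 1.03 ± 0.19 log2 units. Basal cell markers were at 1538 to 1602 CPM in OG CD44+ cells, against 1067 to 1105 CPM in R26 CD44+ cells, with 4 of 9 higher and 3 lower, and Icam1 holds most of that sum. Of the club list, Kcnj16 was at 0 in all 8 libraries. The part of ciliated and airway secretory cells in the changes above was not tested.

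Of fibroblast and mural markers, 11 of 31 were higher and 9 lower, or 13 higher and 12 lower without OG animal 3 and R26 animal 1, the highest library of each group. Col1a1, of type I collagen, was at 912, 569, 633 and 628 CPM in OG CD44+ cells, against 362, 158, 191 and 192 CPM in R26 CD44+ cells (log2 fold change 1.60 ± 0.23, edgeR adjusted p = 3.82e-05). The OG library of animal 3 and the R26 library of animal 1 were the highest of their groups for Col1a1. Sparc, a matricellular protein, rose by 1.49 ± 0.06 log2 units. Eln, elastin, rose by 2.07 ± 0.26 log2 units. Pdgfra, the receptor that marks alveolar fibroblasts, was at 80.4 to 168 CPM in OG CD44+ cells, against 54.2 to 138 CPM in R26 CD44+ cells (log2 fold change 0.19 ± 0.28, edgeR adjusted p = 0.563). Dcn, decorin, fell by 1.16 ± 0.10 log2 units. Inmt, a methyltransferase of lung fibroblasts, fell by 1.06 ± 0.28 log2 units. Endothelial markers were lower in OG CD44+ cells, 0 of 23 higher and 21 lower (median -2.10), and low in both groups at 132 to 164 CPM in OG CD44+ cells, against 271 to 318 CPM in R26 CD44+ cells in sum. Cdh5, the cadherin of endothelial junctions, was at 1.63 to 3.86 CPM in OG CD44+ cells, against 19.1 to 25.1 CPM in R26 CD44+ cells, and fell by 3.15 ± 0.20 log2 units. With at least 50 counts asked for in 4 libraries, 11 endothelial genes were lower, since fewer of them were then tested.

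Macrophage and monocyte markers summed to 1232 to 1333 CPM in OG CD44+ cells, against 16721 to 24124 CPM in R26 CD44+ cells, almost all of it Lyz2 and Apoe, which AT2 cells also express. Without these genes the sums were 152 to 172 CPM in OG CD44+ cells, against 143 to 184 CPM in R26 CD44+ cells. Of the 22 tested, 9 were higher and 6 lower, Lyz2 and Apoe among the lower, with a median log2 fold change of 0.40. Only 4 were higher with the 8 CD44+ libraries fitted alone, and 4 with at least 50 counts asked for in 4 libraries. Marco was at 0 in all 4 R26 CD44+ libraries. Csf1r, the receptor of macrophage colony-stimulating factor, went against that median, at 4.47 to 7.32 CPM in OG CD44+ cells, against 21.8 to 26.8 CPM in R26 CD44+ cells (log2 fold change -1.93 ± 0.14, edgeR adjusted p = 1.89e-11). Lymphocyte and plasma cell markers were at 1431 to 4028 CPM in OG CD44+ cells, against 1600.4 to 3875 CPM in R26 CD44+ cells, and without immunoglobulin and J chain genes at 16.9 to 40.1 CPM in OG CD44+ cells, against 31.2 to 75.2 CPM in R26 CD44+ cells, with 2 of 13 higher and 5 lower, or 3 lower without R26 animal 2, OG animal 6 or OG animal 7. With the 8 CD44+ libraries fitted alone, 0 lymphocyte and plasma cell markers were higher and 3 lower. The T cell and natural killer markers Nkg7 and Ncr1 were at 0 in OG CD44+ cells. Neutrophil, mast cell and eosinophil markers were at 9.37 to 11.5 CPM in OG CD44+ cells, against 7.6 to 10.5 CPM in R26 CD44+ cells, with 2 of 4 higher and 1 lower, or 2 lower without OG animal 3 or R26 animal 2. S100a9, Ly6g and Mpo were at 0 in R26 CD44+ cells and Elane was at 0 in OG CD44+ cells. Erythroid and platelet markers were at 9.93 to 11.2 CPM in OG CD44+ cells, against 15.5 to 26.7 CPM in R26 CD44+ cells, with 0 of 7 higher and 5 lower, or 1 higher without R26 animal 2. Mesothelial markers were at 749 to 819.9 CPM in OG CD44+ cells, against 231 to 279.9 CPM in R26 CD44+ cells, mostly Krt19 and Msln, with 2 of 7 higher and 4 lower. Neuroendocrine and tuft cell markers were at 221 to 247 CPM in OG CD44+ cells, against 73.3 to 101 CPM in R26 CD44+ cells, with 2 of 7 higher and 4 lower, or 1 higher without the CD44+ library of OG animal 5, OG animal 6, R26 animal 2 or R26 animal 8. Most of the OG sum was Uchl1, which went against the list median of -1.28. Uchl1, a ubiquitin hydrolase of neuroendocrine cells and neurons, was at 132, 139, 144 and 156 CPM in OG CD44+ cells, against 1.03, 0.475, 0.987 and 1.51 CPM in R26 CD44+ cells (log2 fold change 7.11 ± 0.12, edgeR adjusted p = 1.13e-22). The part of each of these cell types in the changes above was not tested.

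**Figure D4:**
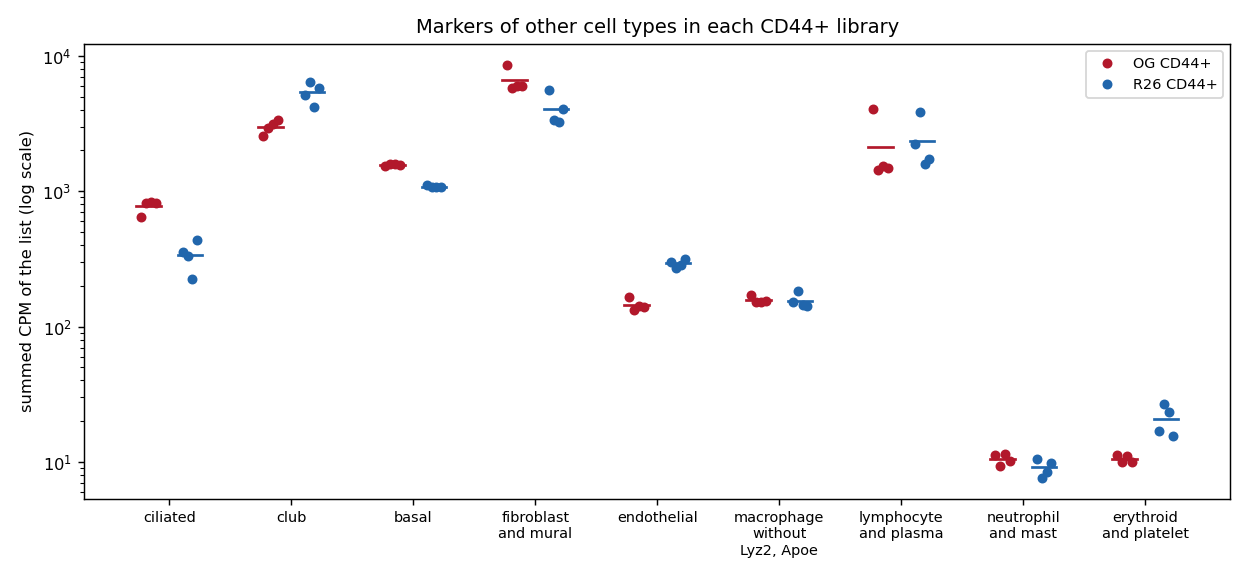
Summed CPM of 9 marker lists in each CD44+ library on a log scale, with OG CD44+ in red at the left and R26 CD44+ in blue at the right, and a line at the group mean. Ciliated, basal and fibroblast sums lie higher in all 4 OG libraries, club, endothelial and erythroid sums lower, and the sums of lymphocyte markers, neutrophil markers and macrophage markers without Lyz2 and Apoe overlap between the groups.

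The same contrast in CD44- cells of the same animals showed which changes were shared. There, 6113 genes (39.4%) were higher and 4592 (29.6%) lower in OG cells. Of the genes higher in OG CD44+ cells, 4514 (84.2%) were also higher in OG CD44- cells, which is 73.8% of the CD44- list, and of those lower, 3898 (72.6%) were also lower, which is 84.9% of the CD44- list. List medians in CD44- cells pointed the same way for AT2 genes (-1.01), transitional genes (2.07), AT1 genes (1.06), ATF4 genes (1.56), NRF2 genes (1.73), the proteasome (1.78) and cholesterol synthesis (-1.22). For cell cycle genes the CD44- median was 0.57, against -0.43 in CD44+ cells.

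A test of the difference between the 2 changes called 1019 genes (6.57%) whose change was more positive in CD44+ cells and 2806 (18.1%) whose change was more negative there. This split depends on scaling, with 1460 and 2275 under DESeq2 size factors, 1412 and 2329 under upper quartile scaling, and 1978 and 1874 when TMM was referred to the OG animal 7 CD44+ library. Leaving out any 1 of the 4 R26 CD44+ libraries gave 1875 to 2419 more positive, and over all 8 libraries left out in turn the counts were 825 to 2419 and 1797 to 2865. In the NRF2 list the difference was called negative for 22 of 34 genes, in the proteasome list for 22 of 32 and in the ATF4 list for 27 of 36, where a negative difference is a smaller rise or a larger fall in CD44+ than in CD44- cells. Slc7a11 had a log2 fold change of 6.23 ± 0.11 in CD44+ cells, against 9.24 ± 0.13 in CD44- cells (difference -3.0 ± 0.23, edgeR adjusted p = 1.56e-08). Its level was 0.5 to 1.21 CPM in R26 CD44- cells. Cldn4 was at 5.27 ± 0.10 in CD44+ cells, against 7.0 ± 0.12 in CD44- cells (difference -1.72 ± 0.17, edgeR adjusted p = 3.10e-07). Plaur was at 3.55 ± 0.10 in CD44+ cells, against 5.91 ± 0.13 in CD44- cells (difference -2.36 ± 0.19, edgeR adjusted p = 5.30e-09). In the AT2 list 21 of 38 differed negatively. Lyz2 was at -4.09 ± 0.10 in CD44+ cells, against -2.22 ± 0.10 in CD44- cells (difference -1.87 ± 0.13, edgeR adjusted p = 9.42e-10). The 2 Sftpc changes, -3.02 ± 0.12 in CD44+ cells, against -2.77 ± 0.12 in CD44- cells, were not called different (edgeR adjusted p = 0.278).

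Over all genes, 53 were higher in OG CD44+ and lower in OG CD44- cells, 263 showed the opposite, and the difference was called for all 316. That nearly follows from the choice of genes, since both changes had been called with opposite signs. Several AT1, fibroblast and endothelial genes were among the 263. Cav1 was at -0.45 ± 0.11 in CD44+ cells, against 1.52 ± 0.12 in CD44- cells (difference -1.98 ± 0.16, edgeR adjusted p = 4.96e-07). Rtkn2 was at -0.90 ± 0.10 in CD44+ cells, against 1.31 ± 0.10 in CD44- cells (difference -2.21 ± 0.14, edgeR adjusted p = 3.93e-09). Tnxb, the matrix protein tenascin-X, was at -1.84 ± 0.18 in CD44+ cells, against 1.54 ± 0.20 in CD44- cells (difference -3.38 ± 0.27, edgeR adjusted p = 9.69e-07). Dcn was at -1.16 ± 0.10 in CD44+ cells, against 1.55 ± 0.13 in CD44- cells (difference -2.72 ± 0.16, edgeR adjusted p = 2.84e-10). Hhip, a hedgehog-binding protein, was at -2.07 ± 0.24 in CD44+ cells, against 1.19 ± 0.40 in CD44- cells (difference -3.25 ± 0.46, edgeR adjusted p = 0.000175). Cdh5 was at -3.15 ± 0.20 in CD44+ cells, against 1.13 ± 0.20 in CD44- cells (difference -4.28 ± 0.28, edgeR adjusted p = 2.84e-10). Endothelial and fibroblast lists moved likewise, with median log2 fold changes of -2.10 in CD44+ cells against 0.78 in CD44- cells and of -0.13 against 1.41. The median was also lower in CD44+ than in CD44- cells for macrophage (0.40 against 3.42), lymphocyte (-0.57 against 2.26), mesothelial (-0.71 against 1.07) and neuroendocrine markers (-1.28 against 0.23). It was higher there for ciliated markers (1.60 against 1.21). The count filter took all 4 groups together, so a scarce marker could be tested through CD44- libraries in which it was high. Medians of lists with scarce markers may partly follow from that filter. With the 8 CD44+ libraries fitted alone, 4 macrophage markers were higher instead of 9, and 0 lymphocyte markers instead of 2. The part of these cell types in the differences between sorts was not tested.

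Among abundant genes, Slc7a2, a cationic amino acid transporter, Tgfbi, a secreted matrix protein, Rgs16, a regulator of G protein signalling, and Lpl, lipoprotein lipase, had some of the largest positive differences, and none of them was called in CD44+ cells. Slc7a2 was at 0.04 ± 0.19 in CD44+ cells, against -1.60 ± 0.21 in CD44- cells (difference 1.64 ± 0.28, edgeR adjusted p = 0.000772). Tgfbi was at -0.02 ± 0.21 in CD44+ cells, against -1.5 ± 0.21 in CD44- cells (difference 1.48 ± 0.30, edgeR adjusted p = 0.00277). Rgs16 was at 0.30 ± 0.27 in CD44+ cells, against -1.25 ± 0.29 in CD44- cells (difference 1.55 ± 0.40, edgeR adjusted p = 0.0134). Lpl was at -0.07 ± 0.27 in CD44+ cells, against -1.43 ± 0.27 in CD44- cells (difference 1.36 ± 0.38, edgeR adjusted p = 0.0198). The largest negative differences included the immunoglobulin genes Igkc and Ighg2b and the J chain gene Jchain, which are made by plasma cells. Igkc was at -0.14 ± 0.40 in CD44+ cells, against 2.62 ± 0.57 in CD44- cells (difference -2.76 ± 0.71, edgeR adjusted p = 0.013). Ighg2b was at -1.37 ± 0.51 in CD44+ cells, against 4.81 ± 1.33 in CD44- cells (difference -6.19 ± 1.39, edgeR adjusted p = 0.00612). Jchain was at 0.07 ± 0.34 in CD44+ cells, against 2.91 ± 0.75 in CD44- cells (difference -2.84 ± 0.84, edgeR adjusted p = 0.0272). Leaving out any 1 of 6 CD44+ libraries ended the call of Ighg2b in CD44+ cells, at log2 fold changes of -1.35 to -0.92, the smallest without R26 animal 2. The part of plasma cells in these 3 differences was not tested.

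Some increases were larger in CD44+ cells. Gprc5c, an orphan receptor, was at 1.87 ± 0.10 in CD44+ cells, against 0.51 ± 0.11 in CD44- cells (difference 1.36 ± 0.16, edgeR adjusted p = 6.71e-07). Cd24a, a surface glycoprotein of epithelia, was at 1.5 ± 0.12 in CD44+ cells, against 0.24 ± 0.12 in CD44- cells (difference 1.26 ± 0.17, edgeR adjusted p = 9.67e-05). Muc5b was at 1.03 ± 0.19 in CD44+ cells, against -0.35 ± 0.23 in CD44- cells (difference 1.38 ± 0.30, edgeR adjusted p = 0.0038). Ctsh was at 2.0 ± 0.06 in CD44+ cells, against 1.19 ± 0.06 in CD44- cells (difference 0.81 ± 0.09, edgeR adjusted p = 2.89e-07). Itgb4 was at 2.76 ± 0.12 in CD44+ cells, against 1.88 ± 0.13 in CD44- cells (difference 0.89 ± 0.18, edgeR adjusted p = 0.0013). Krt8, at 1.52 ± 0.06 in CD44+ cells, against 1.47 ± 0.06 in CD44- cells, and Itgb6, at 3.0 ± 0.14 in CD44+ cells, against 3.12 ± 0.15 in CD44- cells, were not called different between the sorts.

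**Figure D5:**
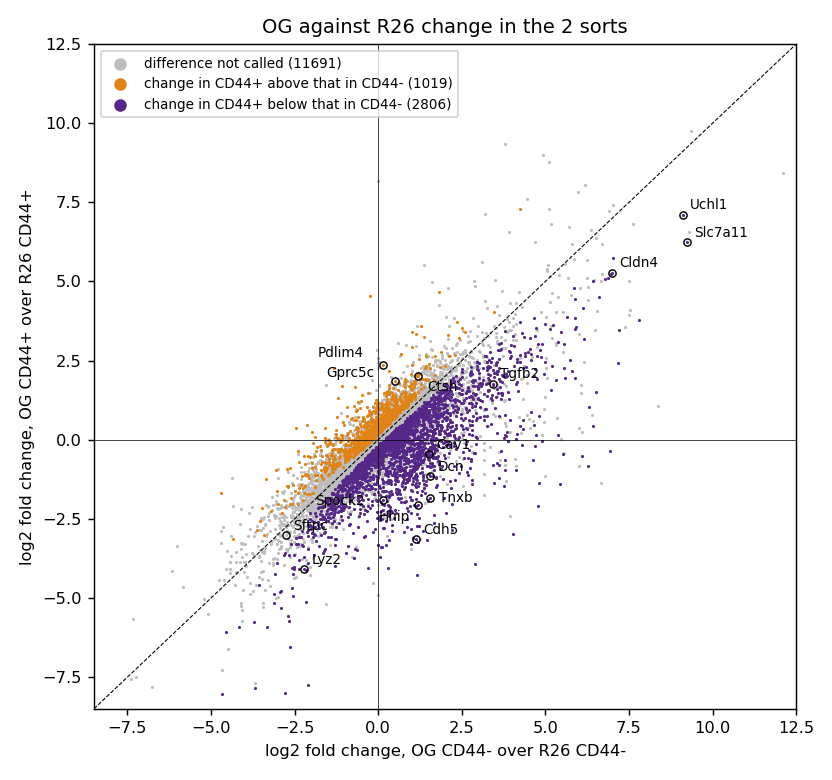
Log2 fold change of OG over R26 in CD44- cells (horizontal) and in CD44+ cells (vertical) for 15516 genes, with a dashed line where both are equal. Orange marks the 1019 genes whose change was called more positive in CD44+ cells and purple the 2806 called more negative, among them Slc7a11 and Cldn4, which rose in both sorts, and Cdh5, Tnxb, Hhip and Dcn, which fell in OG CD44+ cells and were above 0 in CD44- cells.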

How the data were processed

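RNA was sequenced from sorted lung AT2 cells, 4 libraries per group, and the authors deposited raw counts per gene for 16 libraries. Per the submitters' processing notes, Bowtie2 and mm10 were used; the counting program, annotation and strand setting are not given in the sources used here, so reads shared by gene copies or antisense partners cannot be told apart. Of 27179 gene IDs, 25275 (93.0%) matched a RefSeq symbol. One ID without a symbol, 100861531, held 7.32% of all counts and was kept. Totals over the 16 libraries were 9022471 to 21363816 counts, and a count of 3 is at most 0.333 CPM, which covers counting error only.

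Counts were filtered with filterByExpr, scaled by TMM and fitted over all 4 groups with edgeR 4.0.16 (R 4.3.3, quasi-likelihood, robust, no covariates), with Benjamini-Hochberg adjustment at 0.05 and no fold minimum. Standard errors are the size of the log2 fold change over the root of its F value. The labels give 4 samples per group; column names give animals, and nothing states separate cultures or litters, so p-values measure the spread between these libraries. Pairs of CD44+ libraries of the same prefix were checked for spread beyond counting noise by a chi-square per degree of freedom. It was 1.7 to 3.3 among OG animals 5, 6 and 7, and 8.4 to 9.1 in pairs with OG animal 3. Among R26 animals it was 7.8 to 18.6. Other pairs were not checked. After group means were taken off, both sorts of an animal correlated at 0.02 to 0.097 in OG and 0.126 to 0.24 in R26. Alternatives were other scalings and filters, limma 3.58.1 voom, DESeq2 1.42.0, an animal block, and libraries or animals left out. The analysis was tested on simulated data with 100 genes changed 1.5-fold and 100 changed 2-fold among 15516. Of these 75% and 97% were recovered, and 4.97% of the calls were false. With so few changed genes, the simulation cannot show how scaling and calls behave when as many genes differ as here.

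Named genes were Sftpc and the sort antigens, the 12 largest changes each way without group overlap and with a mean log2 CPM from 4 upwards, up to 5 members per list with the smallest adjusted p plus minority members, the 6 largest differences between sorts each way and the 8 most abundant genes per group. Of the 225 genes in the text, 168 came from this rule, and the others, such as Krt7, Hopx, Hspa5 and Nqo1, were chosen after their values were seen. The comparison and all gene lists were chosen with earlier results of these data known.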

Additional observations from a re-analysis of the deposited data

Results flagged for a closer look

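In each CD44+ group, a library is given here where its gap to the nearest of the other 3, divided by the range of the group, was above Dixon's 95% critical value for 4 values. Chance gives about 1 in 20 groups such a gap. Among 450 pairs of a gene in the text and a group, 56 had one, 34 of them in the OG library of animal 3 and 16 in the R26 library of animal 2. The OG animal 3 library stood above the other 3 for Apoe at 51.5 CPM, Atf3 at 269 CPM, Axin2 at 11.3 CPM, C3 at 893 CPM, Eln at 1118 CPM and Fn1 at 2146 CPM. Also above the others in OG animal 3 were Ifrd1 at 122 CPM, Igkc at 1530.3 CPM, Il33 at 134 CPM, Inmt at 122 CPM, Jchain at 402 CPM and Lif at 40.0 CPM. It likewise stood above them for Lpl at 66.5 CPM, Ltbp4 at 159 CPM, Pdgfra at 168 CPM, Pecam1 at 7.89 CPM, Plau at 37.3 CPM and Ptprc at 8.63 CPM. Further such genes there were Tgfbr3 at 31 CPM, Ttn at 15.1 CPM, Vim at 119 CPM and Yap1 at 116 CPM. The OG animal 3 library stood below the other 3 for Aqp5 at 631 CPM, Ccnd1 at 766 CPM, Cd177 at 129 CPM, Cdh1 at 1249.6 CPM, Eno1 at 60.8 CPM and Foxj1 at 105 CPM. Also below the others in OG animal 3 were Itga3 at 799 CPM, Kif1a at 306 CPM, Napsa at 712 CPM, Pkm at 462 CPM, Slc34a2 at 3843 CPM and Slc7a11 at 315 CPM. The OG animal 5 library stood above the other 3 for Ereg at 44 CPM and Npc1 at 355 CPM. The OG animal 7 library stood above the other 3 for Insig1 at 57.5 CPM. The R26 animal 1 library stood above the other 3 for Col1a1 at 362 CPM and Fn1 at 271 CPM. The R26 animal 2 library stood above the other 3 for Aqp5 at 417 CPM, Epas1 at 1162 CPM, Etv5 at 791 CPM, Foxa2 at 98.5 CPM, Lgmn at 103 CPM and Lyz2 at 23629 CPM. Also above the others in R26 animal 2 were Napsa at 1613 CPM, Pkm at 159 CPM, Ptprc at 15.4 CPM, Sftpb at 16375 CPM, Sftpc at 72715 CPM and Slc34a2 at 17486 CPM. It likewise stood above them for Tapbp at 259 CPM. The R26 animal 2 library stood below the other 3 for Krt7 at 121 CPM, Nfe2l1 at 278 CPM and Pdgfb at 25.9 CPM. The R26 animal 8 library stood above the other 3 for Spock2 at 184 CPM. 

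For 22 genes whose change between OG and R26 cells is given above for both sorts, the test of the difference itself was passed. Several of them were named because this difference was among the largest called, so for those the choice fixed the outcome. The log2 difference, CD44+ change less CD44- change, was negative for Ighg2b (-6.19), Cdh5 (-4.28), Tnxb (-3.38), Hhip (-3.25), Slc7a11 (-3.0), Jchain (-2.84) and Igkc (-2.76). It was also negative for Dcn (-2.72), Plaur (-2.36), Rtkn2 (-2.21), Cav1 (-1.98), Lyz2 (-1.87) and Cldn4 (-1.72). The log2 difference was positive for Slc7a2 (1.64), Rgs16 (1.55), Tgfbi (1.48), Muc5b (1.38), Lpl (1.36), Gprc5c (1.36), Cd24a (1.26), Itgb4 (0.89) and Ctsh (0.81).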

How the results depend on the processing

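Of 29 alternatives, the fold minimum moved the counts of the CD44+ comparison by more than 1.5 times, to 2154 higher and 2625 lower. With the other settings that keep all CD44+ libraries, 4551 to 5812 genes were higher and 4560 to 5813 lower, the lowest counts coming with at least 50 counts in 4 libraries, where fewer genes are tested. Libraries left out one at a time gave 5168 to 5543 and 5170 to 5395, and animals left out 5084 to 5525 and 5095 to 5318. Upper quartile scaling gave 4857 and 5813 and moved the median log2 fold change by -0.063. The replicate block is the animal, as a random effect in voom, with an estimated correlation of 0.182; it gave 5471 and 5327 in the CD44+ comparison and 1358 and 3279 for the difference between sorts. The CD44+ comparison can take no fixed block, since the prefixes share no animal. For the difference between sorts, animal as a fixed block in edgeR, added after seeing the data, gave 1449 and 3525, with 1015 and 2794 genes also called without the block.

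The difference between sorts called 1019 genes more positive and 2806 more negative, against 55 and 613 with the 1.5-fold minimum and 1978 and 1874 with TMM referred to OG animal 7. Leaving out libraries gave 825 to 2419 and 1797 to 2865, and animals 657 to 2191 and 1594 to 2562. The cause was not tested. This difference has no value with CD44+ libraries alone.

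Of 225 genes in the text, 42 changed side of the threshold or sign in some setting. The sign turned for 8 genes that were not called in CD44+ cells. With 1 library or animal left out, the log2 fold change ran from -0.07 to 0.19 for Slc7a2, -0.43 to 0.31 for Jchain, -0.14 to 0.25 for Tgfbi, -0.43 to 0.17 for Lpl, -0.6 to 0.31 for Igkc, -0.13 to 0.48 for Pdgfra, -0.00 to 0.09 for Psme1 and -0.01 to 0.26 for Psme2. Slc7a2 was at -0.03 with upper quartile scaling, -0.01 with the stricter filter and -0.12 without OG animal 3 and R26 animal 1. Jchain was at -0.18 in voom with quality weights, -0.02 with the animal block and -0.41 without OG animal 3 and R26 animal 1. Tgfbi was at 0.03 without a filter, and at 0.07 and 0.05 in the same voom fits. Psme1 was at -0.05 with upper quartile scaling and -0.03 with the stricter filter, and Psme2 at -0.01 in voom with quality weights. Of the counts per list, 92 moved by over 1.5 times, 31 of them with the fold minimum. A count of 3 is at most 0.333 CPM, and depth limits genes near that level.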
